A study of Mus musculus with 6 samples.

Results

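B-lineage cells are the cells on the path from bone marrow precursors to B cells and plasma cells. In the single-cell data of 6 mouse rhabdoid tumors they were 130 of the 22163 cells kept (0.587%, exact 95% interval 0.490% to 0.696%). They were chosen by their own UMI counts (unique molecular identifiers, each standing for a captured transcript): a cell needed at least 1 UMI of Cd79a and at least 1 of Cd79b, no UMI of the T-cell genes Cd3d, Cd3e and Cd3g, and fewer than 20 UMIs of the macrophage genes C1qa, C1qb and C1qc per 10000. Only cells in which 200 or more genes were found, and in which mitochondrial genes took no more than 25% of UMIs, entered this choice. MYC spinal tumors gave 114 of the members, and extracranial rhabdoid tumors (eRT) gave 16.

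Cd79a and Cd79b encode the chains that couple the B-cell receptor to its signal, and B-lineage cells carry both from early stages on. In the marrow, precursors use the transcription factors Ebf1 and Pax5, recombine their receptor genes with Rag1, Rag2 and Dntt, and carry a surrogate light chain made of Vpreb1, Vpreb2 and Igll1 before a real light chain exists. Mature B cells carry the surface protein encoded by Ms4a1 (CD20) and present antigen on MHC class II, whereas plasma cells give up these genes and make antibody, which Jchain joins into multimers. Central nervous system tissue normally holds few B cells.

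All tumors came from mice in which a tamoxifen-activated Cre recombinase (creERT2) deletes floxed Smarcb1 (Smarcb1 fl/fl), a core subunit gene of the SWI/SNF chromatin remodeling complex. Pregnant females had received tamoxifen at 50 mg/kg, 6.5 days after conception, and every group carried the floxed alleles, so none serves as a control without them. The 3 MYC spinal tumors, Rosini1172, Rosini1177 and Rosini1232, were taken from Rosa26-cre mice at 19, 26 and 17 weeks of age. The eRT Rosini1148 came from a Rosa26-cre mouse at 17 weeks by its label (the study's supplement gives another age) and lay in a gland. The eRT Soxertini568_maxilar and Soxertini593 came from Sox2-cre mice at 29 and 22 weeks and lay in the jaw and the shoulder. The Rosa26 promoter is active in nearly all tissues, so Cre was not limited to the cells that formed the tumor, and mouse model, site and subtype can be told apart only in part. After lysis of red cells, living cells were sorted with gates against debris and doublets and with no marker of immune cells, 1 library was made per tumor, and the kept cells carried 3841706 to 26184224 UMIs per library. No cell held the same counts in different libraries over the 11057 genes the tables share.

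B-lineage cells were found in 5 of the 6 tumors, and MYC spinal Rosini1177 alone held 97 of the 130 (74.6%). They made up 1.16% of the cells in MYC spinal Rosini1172 (17 of 1469, exact binomial 95% interval 0.676% to 1.85%) and 1.69% in MYC spinal Rosini1177 (97 of 5749, 1.37% to 2.05%). In MYC spinal Rosini1232 there were 0 of 6740, which allows a share of up to 0.0445%. The spinal tumors thus held both the highest shares and the lowest.

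In the eRT the shares were 0.233% in Rosini1148 (5 of 2143, 0.0758% to 0.544%), 0.343% in Soxertini568_maxilar (7 of 2042, 0.138% to 0.705%) and 0.0995% in Soxertini593 (4 of 4020, 0.0271% to 0.255%). The mean was 0.948% ± 0.863 (SD, n = 3) in MYC spinal tumors and 0.225% ± 0.122 (SD, n = 3) in eRT. The difference, eRT minus MYC spinal, was -0.723 percentage points and within the spread between tumors (two-sided exact permutation test over 20 splits, p = 0.4, where the smallest p possible is 0.1). The intervals cover counting error only. Without MYC spinal Rosini1232 the difference was -1.197 points (exact permutation p = 0.1, the smallest possible), and without MYC spinal Rosini1177 it was -0.353 points (p = 0.6). With at least 2 UMIs of each Cd79 gene required, 32 cells remained, and MYC spinal Rosini1172 (13 cells, 0.885%) stood above Rosini1177 (14 cells, 0.244%). With 2 UMIs of the 2 genes summed, 242 cells were found, and Rosini1177 (199 cells, 3.46%) stood further above Rosini1172 (18 cells, 1.23%).

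**Figure D1:**
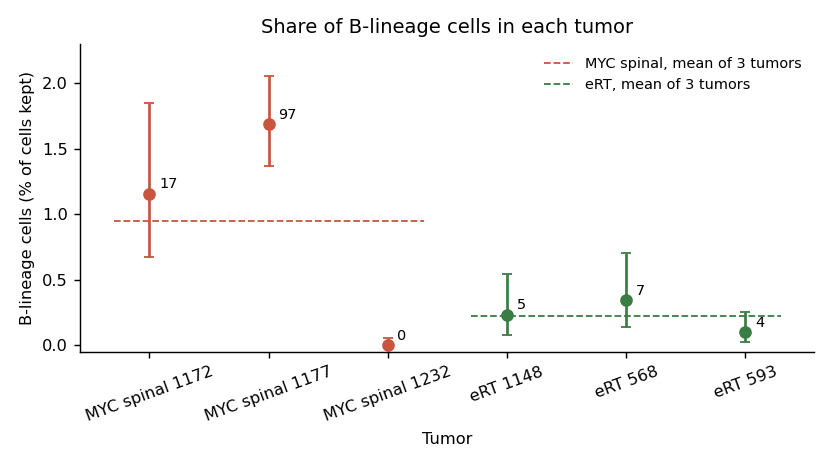
Share of B-lineage cells among the cells kept (%, vertical axis) in each of the 6 tumors (horizontal axis), as points with exact binomial 95% intervals and the number of B-lineage cells beside each point. Dashed lines are the means of 3 tumors, 0.948% for MYC spinal and 0.225% for eRT. MYC spinal Rosini1172 and Rosini1177 lie above the 3 eRT, and MYC spinal Rosini1232 lies below them at 0. Plots name each tumor by the number in its sample name.

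T cells were counted as cells with a Cd3 UMI and no Cd79a or Cd79b UMI, a looser gate than that of the members. By these unlike gates T cells were far more frequent than B-lineage cells except in MYC spinal Rosini1177. There were 57.1 T cells per B-lineage cell in MYC spinal Rosini1172 (970 T cells), 2.05 in MYC spinal Rosini1177 (199), 14.4 in eRT Rosini1148 (72), 79.3 in eRT Soxertini568_maxilar (555) and 53.0 in eRT Soxertini593 (212). MYC spinal Rosini1232 held 292 T cells and no cell that met the B-lineage gate. Without the conditions on Cd3 and C1q it held 4 such cells, and with Cd79a and Cd79b summed to at least 2 UMIs it held 3. The ratios depend on the gates: with Cd79a and Cd79b summed to at least 2 UMIs, Rosini1177 held 199 B-lineage cells, as many as its T cells.

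The gate left members with few UMIs of the genes that chose them. The median Cd79a count per member was 8 in MYC spinal Rosini1172 and 1 in MYC spinal Rosini1177, and 39 members had the minimum of 1 UMI of each gene, 38 of them from Rosini1177. Outside the gate, 350 cells had Cd79a alone, 302 of them in Rosini1177, where 50.7% of these also had Ebf1 and 12.3% had Ms4a1. In MYC spinal Rosini1232, which had no member, 21 cells had Cd79a alone, and 19.0% of these had Ms4a1. Of 143 cells with both genes, 8 were dropped for a Cd3 UMI and 5 for C1q. The highest C1q level among members was 10.1 UMIs per 10000, and the lowest among the dropped cells was 20.1.

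Depth differed between the members of different tumors. Their median UMI count was 1792 in MYC spinal Rosini1172, 924 in MYC spinal Rosini1177, 2711 in eRT Rosini1148, 1173 in eRT Soxertini568_maxilar and 1357.5 in eRT Soxertini593. MYC spinal Rosini1172 and Rosini1177 were the only tumors with at least 10 members, so no test between subtypes could be made inside these cells. Values of Rosini1172 and Rosini1177 are therefore set side by side as 2 libraries, with no test, and the 16 eRT cells are described cell by cell.

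Smarcb1, the floxed gene (GRCm38 chromosome 10, 75896769 to 75921617, minus strand), was too sparse in these cells to tell deletion from low expression. Its level over the summed B-lineage cells was 90.8 CPM (UMIs per 1000000 summed over the cells; 3 UMIs, exact Poisson 95% interval 18.7 to 265) in MYC spinal Rosini1172 and 16.8 CPM (2 UMIs, 2.04 to 60.8) in MYC spinal Rosini1177. In eRT Rosini1148 it was 114 CPM (3 UMIs, 23.6 to 334), and eRT Soxertini568_maxilar and Soxertini593 had 0 UMIs, which allows up to 345 and 589.5 CPM. The T cells of the same tumors stood at 60.0, 30.9, 73.3, 38.1 and 62.9 CPM in the order Rosini1172, Rosini1177, Rosini1148, Soxertini568_maxilar and Soxertini593, and the intervals of both cell types overlapped in every tumor.

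The identity of the members was checked on genes the gate did not use. Ms4a1 was found in 45 of 130 members (34.6%) and in 0 of 2300 T cells. Ebf1 was found in 78 (60.0%) against 1.48% of T cells, and Pax5 in 22 (16.9%) against 0.130%. Mzb1, a chaperone for antibody assembly, was found in 57 (43.8%) against 0.217%. The pooled T cells came mostly from other tumors than the members did. Within Rosini1177 the T cells stood higher, at 5.53% for Ebf1, 1.01% for Pax5 and 2.01% for Mzb1. The members of Rosini1177 stood at 56.7%, 16.5% and 37.1%. Ms4a1 or Ebf1 was found in members of each of the 5 tumors, though in eRT Soxertini593 in 1 cell of 4.

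Ranked by their level in the members of Rosini1172 and Rosini1177 over that in all other cells, the 20 leading genes included, after Cd79a and Cd79b themselves, Ms4a1, Ebf1, Ly6d, Siglecg, H2-DMb2, Bank1, H2-Ob, Gm43291, Gm43603, Vpreb3, Mzb1, Fcrla, Spib, Pax5, Cd38, Tnfrsf13c and Pkig. Siglecg and Bank1 dampen or scaffold receptor signaling in B cells, and H2-DMb2 and H2-Ob belong to the machinery that loads peptides onto MHC class II. The ranking is a description, since the cells were chosen on their own counts. Ly6d reached 3449 CPM in Rosini1172 against 23.1 CPM in the other cells of that tumor, and 858 CPM in Rosini1177 against 204.

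Over the summed members, Cd79a (chromosome 7, 24897381 to 24902197) reached 3842 CPM in MYC spinal Rosini1172, 1515 in MYC spinal Rosini1177, 723 in eRT Rosini1148, 2877 in eRT Soxertini568_maxilar and 1769 in eRT Soxertini593. For Cd79b (chromosome 11, 106311341 to 106314762) the levels in this order were 1452, 1111, 685, 806 and 2751 CPM. Every member had to hold both genes, and the eRT sums rest on few UMIs, so no order of the tumors is read from these levels. As printed, eRT Rosini1148 was lowest for both. That rank rests on 1 cell of 15127 UMIs, without which eRT Rosini1148 stood at 1526 CPM of Cd79a and 1436 CPM of Cd79b and was lowest for neither.

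The members of MYC spinal Rosini1172 had the genes of mature B cells and those of Rosini1177 were mixed. Ms4a1 (chromosome 19, 11249675 to 11266241) was found in 14 of 17 members of Rosini1172 (82.4%, exact 95% interval 56.6% to 96.2%) and in 25 of 97 members of Rosini1177 (25.8%, 17.4% to 35.7%). No T cell of either tumor had a UMI of it, at median depths of 1876 and 787 UMIs. With every cell thinned to 500 UMIs the shares were 44.3% over 17 cells and 16.5% over 86 cells. The level over the summed cells was 1301 CPM in Rosini1172 (942 to 1752) and 328 CPM in Rosini1177 (233 to 449). Share and level were thus both higher in Rosini1172, beyond counting error, and the thinned shares kept that order.

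Ebf1 (chromosome 11, 44617317 to 45008091), the factor that commits precursors to the B lineage, differed less. It was found in 13 of 17 members of Rosini1172 (76.5%, 50.1% to 93.2%) and in 55 of 97 members of Rosini1177 (56.7%, 46.3% to 66.7%). The T cells stood at 0.619% in Rosini1172 and 5.53% in Rosini1177. Its level went the other way, at 938 CPM (637 to 1331) and 1178 CPM (991 to 1390), and thinned to 500 UMIs the shares were 36.9% and 41.5%, so no order can be read. Pax5 stood at 151 CPM (49.1 to 353) and 168 CPM (102.8 to 260).

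A set of 6 precursor genes was found in the members of MYC spinal Rosini1177 and in no other tumor's. The members of Rosini1177 held 118832 UMIs in sum, against at most 33052 in any other tumor. At least 1 UMI of Dntt, Rag1, Rag2, Vpreb1, Vpreb2 or Igll1 was found in 28 of 97 members of Rosini1177 (28.9%, 20.1% to 38.9%), against 1.01% of its T cells. In Rosini1172 there were 0 of 17, which allows a share of up to 17.6%, and the eRT had 0 of 5, 0 of 7 and 0 of 4. Thinned to 500 UMIs the share in Rosini1177 was 18.7% over 86 cells. Summed over the 6 genes the level was 656 CPM in Rosini1177 (519 to 819) and 0 UMIs in Rosini1172, where the exact interval of 0 UMIs reaches 112 CPM. By point value the level in Rosini1177 was 7.23-fold the 90.8 CPM that 3 counts make in Rosini1172.

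Vpreb1 (chromosome 16, 16868403 to 16870843), part of the surrogate light chain, carried 40 of these UMIs in 21 cells, and Igll1, its partner, carried 18 in 10 cells. Dntt, which adds bases at the junctions of receptor genes, had 11 UMIs in 6 cells. The recombinase genes Rag1 and Rag2 had 5 and 2 UMIs. Vpreb1 reached 337 CPM in Rosini1177 against the 90.8 CPM that 3 counts make in Rosini1172, 3.71-fold by point value. For Dntt, at 92.6 CPM, the same ratio was 1.02-fold and no difference was detectable at this depth.

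Vpreb3 (chromosome 10, 75943057 to 75949657), which binds newly made receptor chains and is highest in precursors, was also more abundant in Rosini1177. It was found in 45 of 97 members of Rosini1177 (46.4%, 36.2% to 56.8%) and in 2 of 17 members of Rosini1172 (11.8%, 1.46% to 36.4%), against 3.02% and 0% of their T cells. Its level was 1321 CPM in Rosini1177 (1123 to 1545) and 151 CPM in Rosini1172 (49.1 to 353), 38.1 CPM in eRT Rosini1148, and 0 UMIs in the 7 and 4 members of the other eRT. The intervals of Rosini1172 and Rosini1177 did not overlap in level but did in share.

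MYC spinal Rosini1177 also stood apart in the cells around these members. Of its cells, 20.5% had at least 2 UMIs of Mpo or Elane, genes of granulocyte precursors, and 25.2% had at least 5 UMIs of the granule genes Camp, Ltf and Ngp, against at most 0.935% and 2.89% in any other tumor. Both these cells and the precursor genes stood out in this 1 library alone. The part of these cells in the result was not tested.

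**Figure D2:**
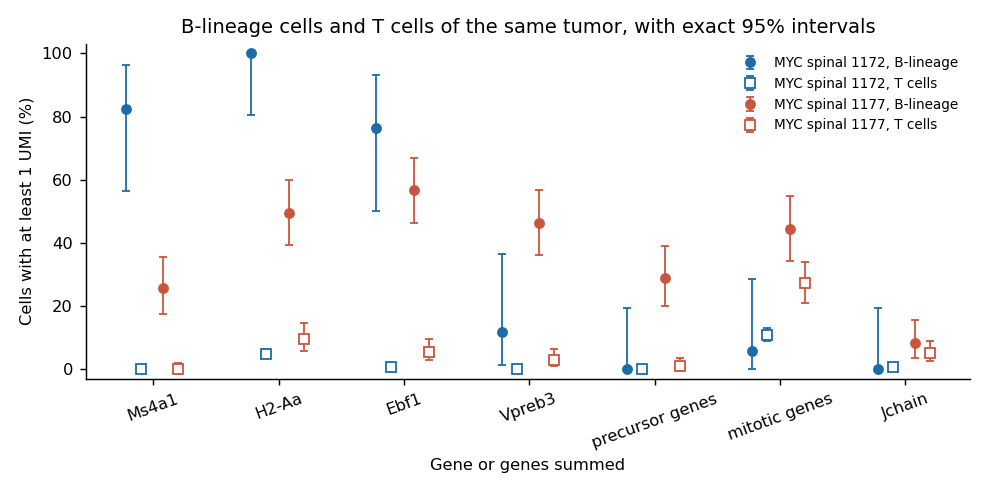
Share of cells with at least 1 UMI (%, vertical axis) of each gene or gene sum (horizontal axis) in the B-lineage cells (filled circles) and T cells (open squares) of MYC spinal Rosini1172 and Rosini1177, with exact binomial 95% intervals. Ms4a1 is at 82.4% and 25.8% of B-lineage cells, the 6 precursor genes at 0% and 28.9% and the 9 mitotic genes at 5.88% and 44.3%, while Jchain in Rosini1177 lies near the level of its T cells.

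Cell division followed the same contrast. At least 1 UMI of 9 mitotic genes (Mki67, Top2a, Birc5, Cdk1, Ccnb1, Ccnb2, Cenpf, Tpx2 and Ube2c) was found in 43 of 97 members of Rosini1177 (44.3%, 34.2% to 54.8%) and in 1 of 17 members of Rosini1172 (5.88%, 0.149% to 28.7%). T cells stood at 27.1% in Rosini1177 and 10.9% in Rosini1172, so other cells of Rosini1177 held mitotic genes more often too. Thinned to 500 UMIs the members stood at 33.3% and 1.19%. Top2a, which untangles DNA for division, had 40 UMIs in 27 members of Rosini1177 and 1 UMI in Rosini1172.

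MHC class II went the opposite way. In single members of Rosini1172, H2-Aa, H2-Ab1 and H2-Eb1 together took 81.3 to 282 UMIs per 10000, with a median of 207, and no member lacked them. In Rosini1177 the range was 0 to 133, the median was 20.5, and 31 of 97 members (32.0%) had none. Members of eRT Soxertini568_maxilar ranged from 62.0 to 202, those of eRT Soxertini593 from 21.8 to 145 and those of eRT Rosini1148 from 9.92 to 162. The lowest cell of Rosini1172 thus lay above most cells of Rosini1177. All cells of eRT Soxertini568_maxilar and Soxertini593 lay above the Rosini1177 median, whereas the lowest cell of eRT Rosini1148 lay below it.

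Cd74, the invariant chain that guides MHC class II to its peptides, stood at 38606 CPM in Rosini1172, 3635 in Rosini1177, 8375 in eRT Rosini1148, 22672 in eRT Soxertini568_maxilar and 15720 in eRT Soxertini593. H2-Aa stood at 7080, 934, 2094, 5294 and 1572 CPM in the same order. MYC spinal Rosini1177 was the lowest tumor for both genes and Rosini1172 the highest, also with eRT Rosini1148 at 16782 and 4487 CPM without its largest cell. For H2-Aa this rank is within counting error, as 1 UMI makes 197 CPM in eRT Soxertini593 and 115 CPM in eRT Soxertini568_maxilar. The H2-Aa order of Soxertini593 against Rosini1177, and of Soxertini568_maxilar against Rosini1172, is therefore not read. T cells stood at 2752 CPM of Cd74 in Rosini1172 and 1569 in Rosini1177, below the members of the same tumor, whereas the T cells of eRT Soxertini593 held 15116 CPM, close to its members.

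**Figure D3:**
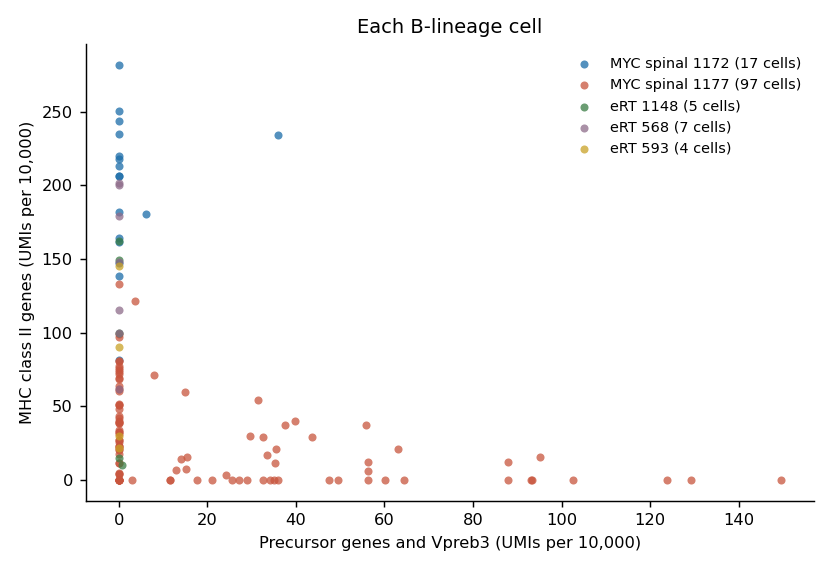
Each of the 130 B-lineage cells by its UMIs per 10000 of the 6 precursor genes and Vpreb3 (horizontal axis) and of H2-Aa, H2-Ab1 and H2-Eb1 (vertical axis), colored by tumor. Most cells high on the horizontal axis come from MYC spinal Rosini1177 and lie low on the vertical axis, but a cell of Rosini1172 lies at 36.1 and 234. The cells of MYC spinal Rosini1172 lie between 81.3 and 282 on the vertical axis.

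The remaining gene lists were set beside all genes compared between the 2 spinal libraries. Of 1933 genes with at least 10 UMIs over both sums, 16.8% were at least 2-fold higher in the members of Rosini1172 and 22.9% at least 2-fold higher in those of Rosini1177, after adding 30 CPM, and the median log2 fold of Rosini1172 over Rosini1177 was -0.10. Of the 9 MHC class II genes 8 could be compared, and all 8 were higher in Rosini1172, with a median log2 fold of 2.87. Summed, the list took 62175 CPM in Rosini1172 and 6564 CPM in Rosini1177, 9.47-fold higher in Rosini1172 (95% counting interval 8.72 to 10.3).

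Mature naive B-cell genes were likewise higher in Rosini1172, in 5 of 6 compared, with a sum 6.76-fold higher (5.16 to 8.92). Ltb, a cytokine gene that shapes lymphoid tissue, stood at 2390 CPM in Rosini1172 and 75.7 in Rosini1177, and T cells differed in the same direction, at 1356 and 206 CPM. Fcmr, the receptor for IgM, stood at 303 and 16.8 CPM, and Tnfrsf13c, the receptor for the survival factor BAFF, at 272 and 33.7 CPM. Among 10 genes of the B-cell receptor and its co-receptors, 7 were higher in Rosini1172 and 0 in Rosini1177, with Cd79a among the 7. Without Cd79a and Cd79b, on which the cells were chosen, 6 of 8 were higher in Rosini1172 and 0 in Rosini1177.

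Of the 15 precursor genes 8 could be compared, and all 8 were higher in Rosini1177 with 30 CPM added. As 7 of them had 0 UMIs in Rosini1172, their folds depend on that addition: held at 3 counts, 4 of the 8 remained at least 2-fold higher, namely Vpreb3, Vpreb1 and the transcription factors Myb and Sox4 of early progenitors. The whole list took 2811 CPM in Rosini1177 and 151 CPM in Rosini1172, 18.6-fold higher in Rosini1177 (7.88 to 57.6). The cell division list was 10.6-fold higher in Rosini1177 in the same way (5.10 to 26.7). Of 11 genes 8 were past 2-fold, but 6 of the 11 had 0 UMIs in Rosini1172 and passed by that filter. With genes at 0 held at 3 counts, 5 of 11 passed.

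The B-lineage transcription factors had no common direction. Pou2f2, Spib and Irf8, at 605 CPM in Rosini1172 and 151 in Rosini1177, were higher in Rosini1172. Bach2, at 30.3 and 278 CPM, Tcf3, Pou2af1 and Irf4 were higher in Rosini1177 with 30 CPM added. Irf4 was at 0 UMIs in Rosini1172, and its point value was 1.48-fold when Rosini1172 was held at 3 counts, so no difference is read for it. The summed list stood at 2965 and 2954 CPM. Interferon-stimulated genes were higher in Rosini1172 in 3 of 4 compared, and the T cells of Rosini1172 held that list at 5399 CPM against 1137 in Rosini1177. Cxcr4, which retains cells in the marrow, had 0 UMIs in Rosini1172 and 429 CPM in Rosini1177, where T cells held 376 CPM against 24.6 in Rosini1172, and Klf2 stood at 90.8 and 698 CPM against 45.2 and 551 CPM in T cells. For these genes the T cells of the same libraries differed in the same direction.

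The other lists gave few genes. The homing list had 3 of 6 genes higher in Rosini1172 and 2 higher in Rosini1177, and the survival list had 2 and 1 of 4. The activation list had 3 and 2 of 8, but the 2 higher in Rosini1177, Egr1 and Nr4a1, were at 0 UMIs in Rosini1172 and under 2-fold when held at 3 counts. Of 4 plasma cell genes compared, Jchain and Irf4 passed 2-fold toward Rosini1177, both at 0 UMIs in Rosini1172. Jchain stood 25.8-fold above 3 counts in Rosini1172 by point value, and 4 cells of Rosini1177 carried 274 of its 278 UMIs. The direction for Jchain rests on the gate. The conditions on Cd3 and C1q dropped 2 cells of Rosini1172 with 115 and 1634 Jchain UMIs. Without these conditions Rosini1172 stood at 32814 CPM, nearly all from the cell with 1634 UMIs, and Rosini1177 at 2292 CPM. Over all cells kept, inside or outside the gate, Jchain took 1% or more of the UMIs in 1.01% of the cells of Rosini1177 and 0.136% of those of Rosini1172. The innate-like list had 2 genes to compare and neither passed. No germinal center gene had a UMI in the members of Rosini1172 or Rosini1177, and S1pr2 and Gcsam were seen in 1 eRT cell each. The 12 immunoglobulin constant genes were not analysed here, so antibody class and light chain use were not read.

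**Figure D4:**
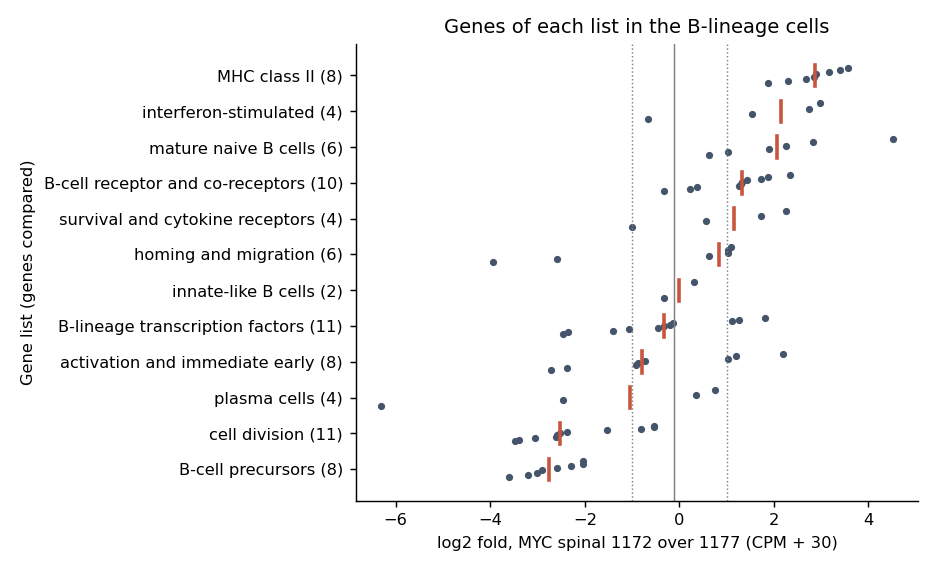
Log2 fold of MYC spinal Rosini1172 over Rosini1177 in the summed B-lineage cells, 30 CPM added (horizontal axis), for the genes of each list that could be compared (points, number in brackets), with the list median as a red bar, the 2-fold limits as dotted lines and the median of all 1933 genes, -0.10, as a grey line. The 8 MHC class II genes lie to the right and the 8 precursor genes to the left, where 7 of these had 0 UMIs in Rosini1172.

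Within MYC spinal Rosini1177 the members fell into cells with precursor genes and cells with Ms4a1. Of the 97 members, 26 had a precursor gene and no Ms4a1, 22 had Ms4a1 and no precursor gene, 2 had both, 4 were high in Jchain and 43 had none of these. The classes were cut on the cells' own sparse counts, so a cell without a UMI may still belong to either, and their comparison is a description. The precursor-gene cells had a median of 1310.5 UMIs and the Ms4a1 cells one of 850.

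Mitotic genes were found in 22 of 26 precursor-gene cells (84.6%, 65.1% to 95.6%) and in 3 of 22 Ms4a1 cells (13.6%, 2.91% to 34.9%). Thinned to 500 UMIs the shares were 64.3% over 24 cells and 7.53% over 19 cells. In the few deeper Ms4a1 cells the mitotic share was higher, at 36.7% over 5 cells thinned to 1000 UMIs and 40% of 5 cells under a stricter cell filter. Vpreb3 was found in 25 of 26 precursor-gene cells and in 2 of 22 Ms4a1 cells, and Ebf1 in 25 and 4. Cd74 was found in 8 of 26 precursor-gene cells and in all 22 Ms4a1 cells. The share intervals of the classes did not overlap for any of these 4 readouts, all cells taken and none thinned. Of the 43 cells with none of the defining genes, 25 had Ebf1, 17 had Vpreb3, 16 had a mitotic gene and 27 had Cd74.

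Of 781 genes with at least 10 UMIs over both classes, 25.2% were at least 2-fold higher in the precursor-gene cells and 9.09% in the Ms4a1 cells. The precursor-gene cells held 38095 UMIs in sum and the Ms4a1 cells 20011. All 6 MHC class II genes compared were higher in the Ms4a1 cells, and the list took 14192 CPM there against 1654 CPM in the precursor-gene cells, 8.58-fold higher (6.51 to 11.5). The Ms4a1 cells of Rosini1177 thus stayed below the 62175 CPM that this list took in the members of Rosini1172. Of the precursor list, Vpreb3, Lef1, Sox4 and Myb could be compared beside the genes that defined the class, and all 4 were higher in the precursor-gene cells. Vpreb3 stood at 2599 CPM (2112 to 3164) against 150 CPM (30.9 to 438).

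All 6 cell division genes compared were higher in the precursor-gene cells, with a list sum 5.78-fold higher (3.34 to 10.8). Ebf1 reached 2048 CPM there and 399.8 CPM in the Ms4a1 cells. Tcf3, Ikzf1 and Bach2 were higher with it, and Pou2f2 and Bcl11a were higher in the Ms4a1 cells. Klf2, a factor of resting lymphocytes, stood at 341 CPM in the precursor-gene cells and 1399 CPM in the Ms4a1 cells. The neutrophil list took 30555 CPM of the precursor-gene cells and 15542 CPM of the Ms4a1 cells, and its part in these differences was not tested.

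Jchain (chromosome 5, 88519809 to 88527891) was found in 0 of 17 members of MYC spinal Rosini1172, 8 of 97 of Rosini1177 (8.25%, 3.63% to 15.6%), 1 of 5 of eRT Rosini1148, 1 of 7 of eRT Soxertini568_maxilar and 2 of 4 of eRT Soxertini593. The T cells of Rosini1177 held it in 5.03% of cells, within the interval of the members, so the share alone does not set the members apart there. The summed level was 2339 CPM in members and 324 in T cells. The amount per cell separated the members. Of the 12 with Jchain, 5 had 1 UMI, at most 0.176% of their UMIs, and all 5 also had Ebf1. The other 7 had 1.63% to 26.9%.

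The 7 Jchain-high members were 4 cells of Rosini1177, 1 of eRT Rosini1148 and 2 of eRT Soxertini593. All 7 also had Mzb1, 0 had Ebf1 and 1 had Ms4a1. In eRT Soxertini593 they took 21.8 and 29.9 UMIs of the 3 MHC class II genes per 10000, against 90.5 and 145 in the other members there. In eRT Rosini1148 the Jchain-high cell took 14.9, against 9.92 to 162 in the others. The plasma cell list as a whole stood at 88623 CPM in eRT Soxertini593, nearly all of it Jchain at 79583 CPM. These Jchain UMIs came from 2 cells, with 361 and 44 UMIs, so the sum rests mostly on 1 cell. In Rosini1172 the list stood at 908 CPM, and Mzb1 carried 26 of its 30 UMIs.

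**Figure D5:**
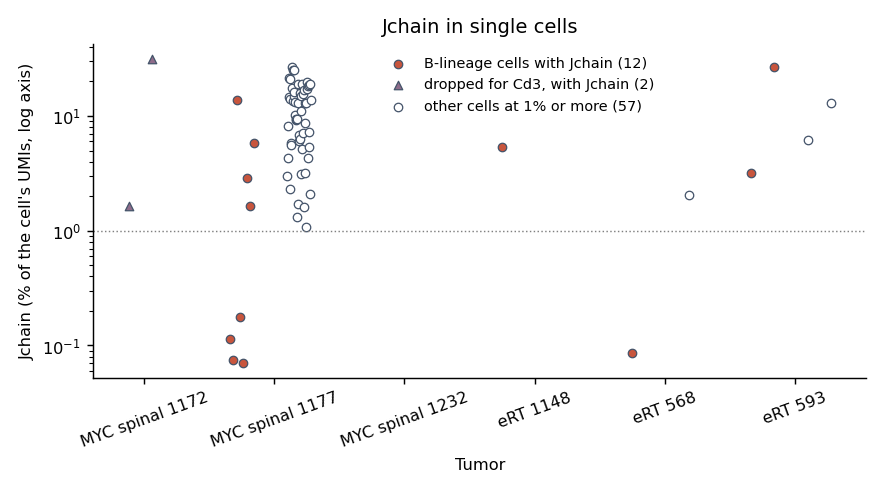
Jchain as a share of a cell's UMIs (%, logarithmic vertical axis) by tumor (horizontal axis), for the 12 B-lineage cells with a Jchain UMI (filled circles), the 2 cells with Jchain that were dropped for Cd3 (triangles) and 57 other cells at 1% or more (open circles). The dotted line is at 1%, and 54 of the open circles are in MYC spinal Rosini1177.

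The members of the eRT can be given cell by cell. In eRT Soxertini568_maxilar all 7 had Ebf1, with 1 to 6 UMIs, each had 1 UMI of Cd79b and 2 to 5 of Cd79a, and 3 had Ms4a1 (42.9%, 9.90% to 81.6%). None had a mitotic gene or Vpreb3. In eRT Soxertini593 the 2 members without high Jchain had 995 and 1379 UMIs, 4 and 1 UMIs of Cd79a, and 0 UMIs of Ms4a1, and 1 of them had Ebf1. These 4 cells are too few to say that Ms4a1 is absent, since 0 of 4 allows a share of up to 75.0%.

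In eRT Rosini1148 the 5 members were unlike each other. The cells of 1809, 4612 and 2711 UMIs had 99.7 to 162 UMIs of MHC class II genes per 10000, 1 cell was high in Jchain with 108 UMIs, and 1 cell had 15127 UMIs. That last cell held 67 UMIs of mitotic genes and 74 of Lyz2, a gene of myeloid cells, beside 2 of Cd79a and 2 of Cd79b, and gave nearly all mitotic UMIs of the eRT members. Whether it holds more than 1 cell was not tested.

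RNA of other cell types was measured in the members by marker lists. The neutrophil list of 6 genes summed to 43246 CPM in the members of Rosini1177, with all 6 found, and to 86081 CPM in its T cells. It was at 0 in the members of Rosini1172, eRT Rosini1148 and eRT Soxertini593 and at 460 CPM in eRT Soxertini568_maxilar. S100a8 and S100a9 took at least 5% of the UMIs of 10 members of Rosini1177, with a highest value of 35.4%, and the median was 0.349% in members and 0.474% in T cells. Without these 10 cells Ms4a1 was found in 27.6%, precursor genes in 29.9% and mitotic genes in 47.1% of the members of Rosini1177.

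The macrophage list of 9 genes summed to 60.5 CPM in the members of Rosini1172 and 2121 in Rosini1177. In the eRT it summed to 3845 CPM in Rosini1148, 0 in Soxertini568_maxilar and 1179 in Soxertini593. These sums lay below those of the T cells of each tumor. That order was partly set beforehand, since the list holds C1qa, C1qb and C1qc, which the gate limited in members but not in T cells. In eRT Rosini1148 the cell of 15127 UMIs carried most of it, and the other 4 members held 538 CPM. The NK-cell list was at 0 in all tumors but Rosini1177, at 42.1 CPM, and the T-cell list, apart from the Cd3 genes that the gate set to 0, rested on Lck alone, at 0 to 114 CPM. Granulocyte-monocyte progenitor genes were at 345 CPM in the members of Rosini1177 against 1827 in its T cells, and at 0 elsewhere. Plasmacytoid dendritic cell genes reached 75.7 CPM in Rosini1177 and 0 elsewhere, conventional dendritic cell genes 16.8 CPM and 0, erythroid genes at most 114 CPM, and matrix genes 0 in all. Members of Rosini1172 held Apoe at 5597 CPM and Mbp, a myelin gene, at 1513 CPM, against 2321 and 478 CPM in its T cells, and 50.5 and 16.8 CPM in the members of Rosini1177. The part of this other RNA in the levels given above was not tested.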

How the data were processed

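Single-cell RNA was read from 6 tumors. The authors made 10x Genomics libraries, aligned them to mm10 with Cell Ranger 2.0.2 (submitters' processing notes) and deposited the unnormalized UMI counts, as tables of genes found in at least 3 cells. Here cells were filtered and gated as stated above. Groups came from the labels, which give 1 sample per mouse. Members, lists and tests were chosen with earlier results of these data known, and named genes are list genes, those carrying most UMIs or differing most, and the 20 leading genes (found in at least 10% of members, 10 CPM added). CPM are UMIs summed over cells, per 1000000. Intervals are exact at 95%, a count of 0 is given as 3 counts, and thinned shares are expected values. Folds against 3 counts take the point value of the other sum and leave out its counting error. Subtype shares were compared by an exact permutation test, checked on simulated data. The planned test across genes was not run, since the eRT had no tumor with 10 members. The comparison of Rosini1172 with Rosini1177 and the classes were added after seeing the data. Scrublet (scanpy 1.11.5) marked 21 of 22163 cells as doublets, too few to have worked, and 0 members. None was removed. The 7 members among the 843 highest scores were left out as an alternative. Tables carry cell numbers in place of barcodes. Tools were Python 3.11.15, numpy 2.4.6, scipy 1.17.1 and pandas 2.3.3, with GENCODE gene positions on GRCm38. A gene among the 20 is not reported here.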

Additional observations from a re-analysis of the deposited data

Results flagged for a closer look

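Both results below lie in cells that the gate left out, and both were seen far above the other tumors. In MYC spinal Rosini1177, 54 cells outside the gate had Jchain at 1% or more of their UMIs, against 2 in MYC spinal Rosini1172, 0 in MYC spinal Rosini1232, 0 in eRT Rosini1148, 1 in eRT Soxertini568_maxilar and 2 in eRT Soxertini593. Their median Jchain share was 12.03% and their median depth 664.5 UMIs. Mzb1 was found in 42 of them, Cd79a in 21 and Cd79b in 6. Within the gate Rosini1177 held 4 such cells. The 2 in MYC spinal Rosini1172 had 115 and 1634 Jchain UMIs and 6 and 7 Cd3 UMIs, which dropped them.

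In MYC spinal Rosini1177, 113 cells outside the gate had at least 2 UMIs of the 6 precursor genes, against 17 within it and at most 2 in any other tumor. Of the 113 cells, 66 had a UMI of Cd79a or Cd79b and 83 had Ebf1, at a median depth of 1170 UMIs.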

How the results depend on the processing

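No paired analysis was possible because replicate numbers only follow sample order and tie no tumors together. The MYC spinal mean share stayed above the eRT mean under each alternative run. The difference in share ran from -1.25 to -0.306 points over the other gates, filters and denominator (p = 0.4 in each exact permutation test), and from -1.197 to -0.353 with a tumor left out.

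The shares inside B-lineage cells moved most with thinning and with the stricter cell filter. In MYC spinal Rosini1172, thinning to 500 UMIs gave 44.3% for Ms4a1 and 36.9% for Ebf1, Jchain was at 9.52% without the Cd3 and C1q conditions, and mitotic genes were at 0% with 2 UMIs of each Cd79 gene or 2 mitotic UMIs required. In MYC spinal Rosini1177, Ms4a1 was at 35.7% with 2 UMIs of each Cd79 gene, 17.4% when cells needed 500 genes and no more than 10% mitochondrial UMIs, and 16.5% and 11.4% thinned to 500 and 1000 UMIs. With that filter Ebf1 was at 69.6%, precursor genes at 47.8% and mitotic genes at 73.9%. Thinned to 500 UMIs these stood at 41.5%, 18.7% and 33.3%, and mitotic genes at 63.2% thinned to 1000. Requiring 2 precursor UMIs gave 17.5%. Smarcb1 was at 0 CPM with 2 UMIs of each Cd79 gene. The mitotic share was 64.3% in precursor-gene cells thinned to 500 UMIs, and in Ms4a1 cells 0% with 2 UMIs of each Cd79 gene, 40% with the filter and 36.7% thinned to 1000.

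Genes at least 2-fold higher in Rosini1172 went from 325 to 141 with at least 20 UMIs and to 144 with 2 UMIs of each Cd79 gene, and those higher in Rosini1177 from 442 to 243 and 104, as fewer genes were compared. All MHC class II genes compared stayed higher in Rosini1172 in each of these, but with 2 UMIs of each Cd79 gene 1 precursor gene and 0 cell division genes could still be compared. The planned tests of genes and shares inside B-lineage cells between subtypes, with their alternatives, were not run, since only 2 tumors, both MYC spinal, had 10 members. The neutrophil-high, Jchain-high and doublet-score alternatives and those of the Rosini1172 and Rosini1177 folds, and eRT Rosini1148 without its largest cell, were chosen after seeing the data.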

Other observations

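The genes with the largest folds between the classes of MYC spinal Rosini1177, named after their values were seen, lay partly outside the B-cell lists. S100a6, a calcium-binding protein gene, had 124 UMIs in the Ms4a1 cells (6197 CPM) and 7 in the precursor-gene cells (184 CPM). Ly6a, which encodes Sca-1, had 17 UMIs and S100a4 had 12 UMIs in the Ms4a1 cells, and both had 0 in the precursor-gene cells. Stmn1, a microtubule regulator of dividing cells, had 69 UMIs in the precursor-gene cells and 2 in the Ms4a1 cells. Cbx3, which binds methylated chromatin, had 33 and 0, and Lrmp had 17 and 0. Folds are not given against classes at 0.

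Vpreb3 and Smarcb1 are neighbors: 21439 bases of GRCm38 chromosome 10 lie between them.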
